A study of Mus musculus with 9 samples.

Results

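The genes described here are 45 genes of homologous recombination, the Fanconi anemia pathway, mismatch repair and the damage checkpoint, chosen by symbol from the 15552 protein-coding genes of the count table. All 45 had a row, and all 45 were among the 11373 genes with enough counts to be tested. RNA was sequenced from MyC-CaP cells, a mouse prostate cancer line from a MYC-driven tumor, at 3 times, 0, 12 and 24 h after addition of recombinant NRG1 (15 ng/mL), which binds the receptor HER3, with 3 biological replicates each. Before the ligand was added, the cells had been starved of serum and calcium. Cells of all 3 times, 0 h included, therefore shared the starvation, and libraries of cells left without NRG1 for 12 or 24 h were not analysed here, so that time with NRG1 and time in the starvation medium cannot be told apart. Because these are bulk libraries of 1 line, more transcripts per cell and more cells holding a transcript cannot be told apart either.

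Total counts ran from 28467089 to 37873433 over the 0 h libraries, from 30920755 to 36177889 over those at 12 h and from 30299344 to 39239760 over those at 24 h. Levels are given as CPM, counts relative to the library total, scaled by the trimmed mean of M values (TMM), and at these depths 3 counts correspond to between 0.0764 and 0.107 CPM. Of the markers of prostate and epithelial cells, Hoxb13 stood at 84.3 CPM at 0 h and Krt8 at 18.2. The epithelial genes Krt18, Cdh1 and Epcam were at or near 0, with means of at most 0.378, 0.0824 and 0.0299 CPM at any time. The fibroblast list held 1 clearly expressed gene, Pdgfra, at 16.8 CPM at 0 h, with Col1a1, Col1a2, Col3a1 and Dcn at no more than 0.309 CPM. The 6 leukocyte markers summed to at most 0.329 CPM and the 4 endothelial markers to at most 0.359 CPM in any library.

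Homologous recombination repairs a broken chromosome by copying the sister chromatid: the end is resected, BRCA proteins help the end invade the intact copy, and the joined molecules are then dissolved or cut. The Fanconi pathway handles DNA crosslinks by attaching ubiquitin to the FANCD2 and FANCI proteins, after which nucleases and recombination complete the repair. Mismatch repair removes base mispairs left by replication through MutS and MutL proteins, and the kinases ATM and ATR signal damage to the cell cycle.

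Most of the genes were higher with time on NRG1. At 12 h against 0 h, 33 of the 45 had risen and 2 had fallen at an edgeR adjusted p of at most 0.05, against 13.6% of all tested genes higher and 11.9% lower. At 24 h against 0 h, 31 had risen and 0 had fallen by the same edgeR rule, where 9.67% of all tested genes were higher and 7.76% lower, and DESeq2 and limma voom likewise gave 0 lower. At an unadjusted p under 0.05, 1 of the 45 was lower at 24 h in edgeR, Rad51d, with the share of all tested genes at that p not counted. The median log2 fold change of the 45 was 0.38 at 12 h and 0.46 at 24 h, beside -0.0028 and -0.0065 over all tested genes. Both comparisons use the same 3 libraries at 0 h. Summed over the 45 genes, the level ran from 758.8 to 828.5 CPM over the 0 h libraries, from 954.1 to 996.3 over the 12 h libraries and from 996.9 to 1048 over the 24 h libraries. The later sums did not overlap those at 0 h, and the ranges of 12 and 24 h all but met.

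**Figure D1:**
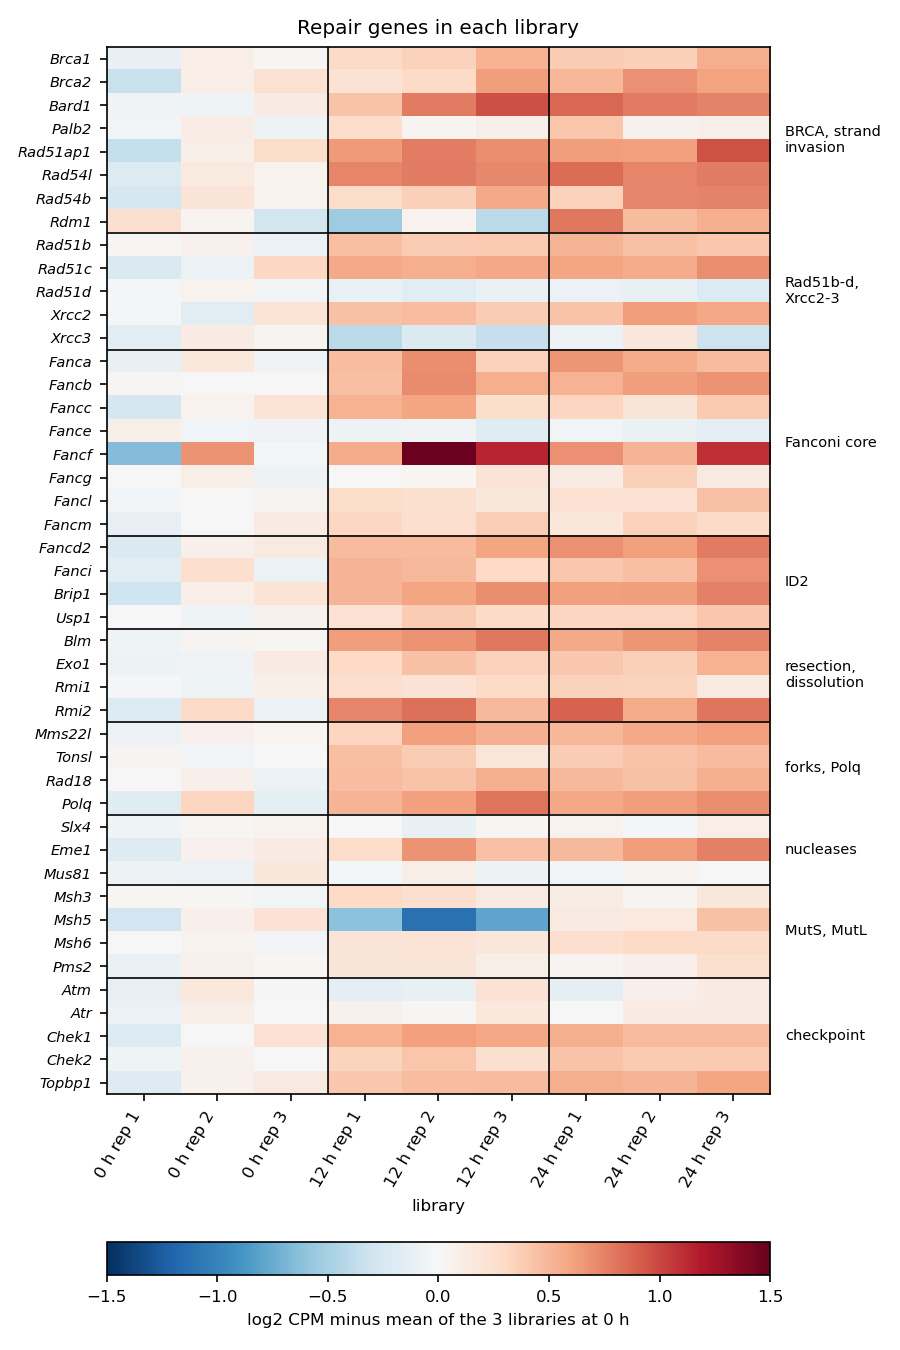
Heat map of the 45 genes (rows, by class) in the 9 libraries (columns), coloured by log2 CPM minus the gene's mean over the 3 libraries at 0 h. Most rows turn from near 0 to red at 12 h and stay red at 24 h. The rows of Msh5 and Xrcc3 are blue in all 3 libraries at 12 h, and those of Rad51d and Fance lie slightly below 0 there.

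By the edgeR calls 30 genes were higher at both times. How many of all tested genes were higher at both was not counted, so the 30 are a description only. Fancc, Fancf and Msh3 passed at 12 h only, and Rdm1 at 24 h only. The other 11, Palb2, Rad51d, Xrcc3, Fance, Fancg, Slx4, Mus81, Msh5, Pms2, Atm and Atr, were not called higher at either time. Most changes were small. At 12 h, 8 genes had changed by at least 1.5-fold, beside 2.29% of all tested genes, or 1.34% counted as higher. Of these, Bard1, Rad51ap1, Rad54l, Fancf, Blm, Rmi2 and Polq were higher and Msh5 was lower. At 24 h the number was 13, all higher, beside 1.68% of tested genes called higher. These were Bard1, Rad51ap1, Rad54l, Rad54b, Rdm1, Rad51c, Fancb, Fancd2, Brip1, Blm, Rmi2, Polq and Eme1.

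The counts at 1.5-fold rested in part on single libraries. Replicate 1 at 0 h was the lowest of its 3 libraries for 29 of the 45 genes, compared with 37.8% of all tested genes. Without it, 4 genes instead of 8 reached 1.5-fold at 12 h and 7 instead of 13 at 24 h, and without replicate 2 at 12 h the number at 12 h was 5. Replicate 3 at 24 h was the highest of its 3 libraries for 26 genes, compared with 34.8% of all tested genes. Without that library, 10 genes reached 1.5-fold at 24 h. When glmTreat in edgeR tested whether a change exceeded 1.5-fold, rather than whether it differed from 0, 0 of the 45 passed at either time. At an unadjusted p under 0.05 it gave 5 at 12 h, with Msh5 the lower one, and 3 at 24 h. The share of all tested genes by that rule was not counted. By the position of the 3 libraries alone, 32 genes were higher in every 12 h library than in any 0 h library and 4 were lower, against 19.9% and 18.5% of tested genes. For 24 h the numbers were 33 and 1, against 17.6% and 17.9%.

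**Figure D2:**
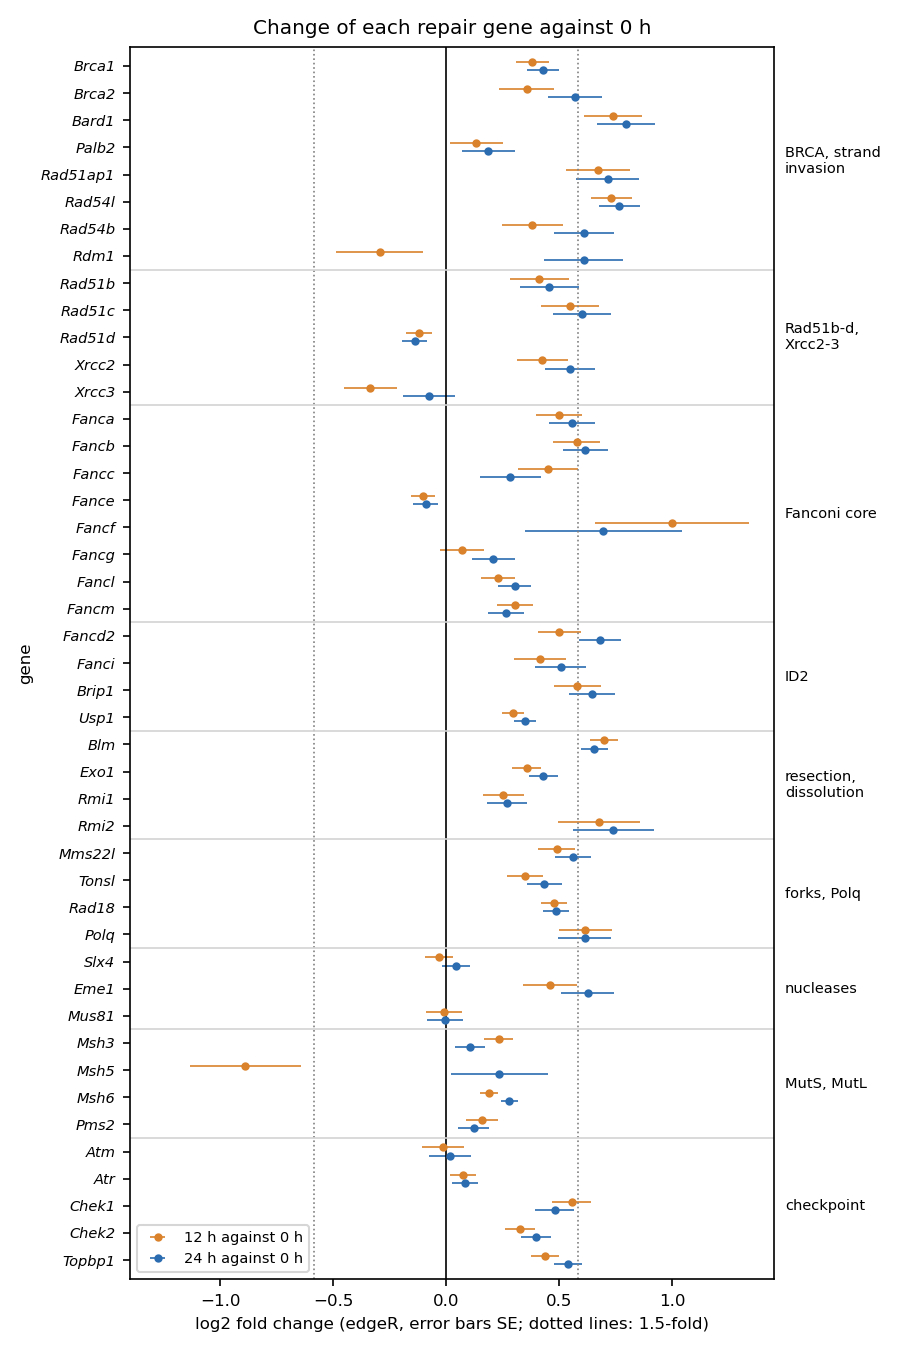
Log2 fold change of each of the 45 genes against 0 h (horizontal axis, points, with SE as bars) at 12 h (orange) and 24 h (blue), grouped by class, with dotted lines at 1.5-fold. Most points lie between 0 and 0.80, the 12 h point of Msh5 lies at -0.89, and the nucleases Slx4 and Mus81 and the kinases Atm and Atr lie near 0.

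Baseline levels spanned a wide range when divided by exon length. CPM per kilobase of exon could be given for 44 of the 45 genes, all but Fancb. At 0 h the highest were Usp1, at 19.4 ± 0.911, and Msh6, at 18.7 ± 0.619 (SD, n = 3), which did not differ beyond their spread. Fance followed at 12.6 ± 0.707, then Rad51d at 7.86 ± 0.283 and Topbp1 at 7.75 ± 0.908, the last pair again within their spread. The lowest were Msh5, at 0.255 ± 0.0454, Fancf, at 0.376 ± 0.185, and Rmi2, at 0.389 ± 0.0750. Fancf could not be ordered against either of the others, since its spread covered both.

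**Figure D3:**
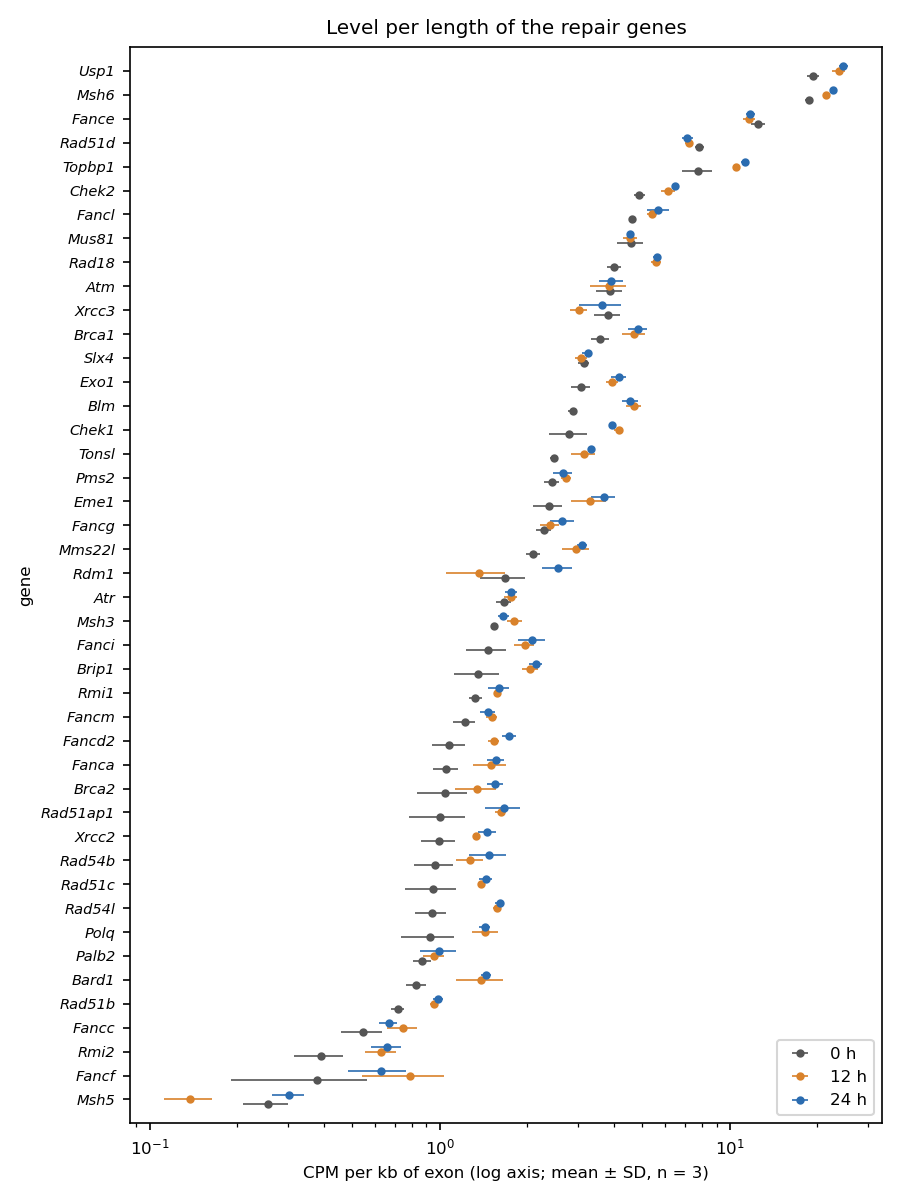
CPM per kilobase of exon (horizontal log axis) of 44 of the genes, ordered by their level at 0 h, as mean ± SD of 3 libraries at 0 h (grey), 12 h (orange) and 24 h (blue). The levels run from 0.255 for Msh5 to 19.4 for Usp1 at 0 h, and in most rows the grey point lies to the left of the other 2.

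Promoters of the genes were read as well. RefSeq windows from 250 bases before to 50 after a gene start (GRCm38.p6) were given for 36 of the genes, with 41 windows in all. Rad51d, Rdm1, Usp1, Xrcc2, Tonsl, Rmi2, Fancd2, Exo1 and Rad54b had none. Both strands were searched for letters of sites of the E2F factors, which act on S phase genes, namely TTTCCCGC, TTTGGCGC, TTTCGCGC and TTTGCCGC. Such letters stood in 26.8% of the 41 windows, beside 4.04% of the windows of tested genes and 2.26% of all windows. They belonged to 10 genes, Brca2, Bard1, Rad51c, Fancg, Rmi1, Msh3, Msh5, Msh6, Chek2 and Topbp1, and in Msh3 a match on each strand overlapped. The stretches below are shown for those whose values are given library by library further on, in lower case with the E2F letters in capitals and in the direction of the gene. That of Bard1 lies at chr1:71103144-71103211 on the minus strand, those of Rad51c, which has 2 windows, at chr11:87404477-87404506 and chr11:87404941-87404970 on the minus strand, and that of Msh5 at chr17:35046669-35046698 on the minus strand. The stretch of Msh6 lies at chr17:87975054-87975083 and that of Topbp1 at chr9:103305168-103305235, both on the plus strand.
Bard1: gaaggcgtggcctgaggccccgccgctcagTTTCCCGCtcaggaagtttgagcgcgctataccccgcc
Rad51c, window 1: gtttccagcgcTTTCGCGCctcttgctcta
Rad51c, window 2: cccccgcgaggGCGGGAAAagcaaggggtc
Msh5: tgacggaaaagGCGGGAAAgtgctgcgaat
Msh6: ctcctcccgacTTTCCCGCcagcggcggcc
Topbp1: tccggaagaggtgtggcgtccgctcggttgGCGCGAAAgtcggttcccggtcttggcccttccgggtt

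Distances are counted from the RefSeq start of each window, which for all but window 2 of Rad51c is not the start of the gene coordinates given further on. The capitals start 209 bases before the RefSeq start in Bard1, 129 before it in Topbp1 and 65 before it in Msh5. The stretches of Msh5 and of window 1 of Rad51c lie wholly within the annotated gene, and each of the others lies partly within its own. The match of Msh6 starts at base 16 from the RefSeq start, and those of Rad51c at base 12 in window 1 and 5 bases before the start in window 2. At 12 h, 8 of the 10 with a match had risen, with a median of 0.29 on the log2 scale, and 18 of the 26 without one, with a median of 0.43. At 24 h the numbers were 7 of 10 with a median of 0.34 and 16 of 26 with a median of 0.47. Only the exact letters were counted, so a gene without a match may hold a close variant. Whether a match goes with a rise was not tested. The cell cycle homology region letters, TTTGAA or TTCGAA, stood in 12.2% of the 41 windows and in 14.0% of those of tested genes, and CCAAT in 58.5% and 38.3%. These matches describe letters in a window and were not tested as binding sites.

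The first class holds the BRCA proteins and other factors of strand invasion. Of its 8 genes, 6 had risen at 12 h and 7 at 24 h, with median log2 fold changes of 0.38 and 0.61. Bard1 (ENSMUSG00000026196.7, chr1:71027498-71103146), whose product is the partner of BRCA1 in a ubiquitin ligase, had the largest estimate of the class at both times, although Rad54l was within its SE and exceeded it in the fits without 0 h replicate 2, and at 12 h also without 12 h replicate 3. Its levels were 4.51, 4.47 and 5.11 CPM in the 0 h libraries, 6.34, 8.10 and 9.20 at 12 h and 8.55, 8.07 and 7.90 at 24 h. All 6 later libraries lay above the highest at 0 h, and the 24 h values lay within the range of those at 12 h. The log2 fold change was 0.74 ± 0.129 at 12 h and 0.80 ± 0.128 at 24 h (SE), with edgeR adjusted p of 0.000495 and 0.000325. Brca1 itself rose by 0.38 and 0.43, and Brca2, which acts in strand invasion, by 0.36 and 0.57, although the 12 h rise of Brca2 missed the threshold once 0 h replicate 1 (0.22), 0 h replicate 2 (0.40), 12 h replicate 3 (0.23) or 24 h replicate 3 (0.36) was dropped. Other genes of strand invasion rose as well. Rad54l changed by 0.73 at 12 h and 0.77 at 24 h, Rad51ap1 by 0.67 and 0.72, and Rad54b by 0.38 and 0.61. Fsbp, on the same strand, covers 35.8% of the exonic bases of Rad54b, and Lrrc41, on the opposite strand, 15.4% of those of Rad54l, so these counts are less certain. The 12 h rise of Rad54b likewise depended on 0 h replicates 1 (0.28 when dropped) and 3 (0.41), 12 h replicates 2 (0.40) and 3 (0.31) and 24 h replicate 3 (0.38). Palb2, which bridges BRCA1 and BRCA2, did not pass, with log2 fold changes of 0.13 and 0.19. The last of the class, Rdm1, is taken up with Msh5.

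The products of Rad51b, Rad51c, Rad51d, Xrcc2 and Xrcc3 form complexes that act on single-stranded DNA in recombination. The class split: Rad51b, Rad51c and Xrcc2 rose at both times, Xrcc3 fell at 12 h, and Rad51d did not pass. Rad51c (ENSMUSG00000007646.13, chr11:87376645-87404954) stood at 3.51, 3.87 and 5.08 CPM at 0 h, 6.12, 6.01 and 6.17 at 12 h and 6.19, 6.07 and 6.70 at 24 h. The later libraries did not overlap those at 0 h, where replicate 3 was nearest to them. Its log2 fold changes were 0.55 ± 0.129 (SE, edgeR adjusted p = 0.00493) and 0.60 ± 0.127 (edgeR adjusted p = 0.00334). Xrcc2 rose by 0.43 and 0.55 and Rad51b by 0.41 and 0.46. The 12 h rise of Xrcc2 was lost without replicate 2 at 0 h (0.34), and Rad51b lost its call without replicate 3 at 0 h, where it was at 0.38 and 0.42, or without replicate 1 or 2 at 12 h for the 12 h value and at 24 h for the 24 h value. Xrcc3 (ENSMUSG00000021287.12, chr12:111803192-111813873), the partner of Rad51c in one of these complexes, moved the other way. It was at 9.26, 11.4 and 10.7 CPM at 0 h, 7.85, 8.91 and 8.16 at 12 h and 9.79, 11.7 and 8.38 at 24 h. Its 12 h libraries all lay below those at 0 h, while the 24 h libraries spread across both. In the fit, 12 h differed from 0 h by -0.34 ± 0.118 (SE, edgeR adjusted p = 0.0451), with -0.076 at 24 h, and the 12 h fall was no longer called when dropping 0 h replicates 2 (-0.26) or 3 (-0.31), 12 h replicates 1 (-0.29) or 3 (-0.31), or 24 h replicate 1 (-0.34). For Rad51d, values of -0.12 and -0.14 missed the threshold (edgeR adjusted p = 0.128 and 0.0972), although its libraries at 12 and 24 h all lay below those at 0 h.

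The Fanconi core complex is the ubiquitin ligase of the pathway, brought to DNA by FANCM. Of its 8 genes, 6 had risen at 12 h and 4 at 24 h, with medians of 0.38 and 0.29. Fancb (ENSMUSG00000047757.17, chrX:164980592-164997272), a subunit of the catalytic module, had 5.39, 5.34 and 5.31 CPM at 0 h, 7.35, 8.81 and 7.83 at 12 h and 7.69, 8.31 and 8.56 at 24 h. The 0 h values were nearly alike and all later ones stood well above them. Its log2 fold changes were 0.58 ± 0.102 (SE, edgeR adjusted p = 0.000558) and 0.62 ± 0.101 (edgeR adjusted p = 0.000400). Fanca, a large scaffold subunit, rose by 0.50 and 0.56, Fancl, which carries the ligase activity, by 0.23 and 0.30, and Fancm by 0.30 and 0.26. Fancf (ENSMUSG00000092118.1, chr7:51860577-51862267), an adaptor subunit, had the largest estimate at 12 h and the lowest counts. It was measured at 0.355, 0.973 and 0.581 CPM at 0 h, 0.894, 1.74 and 1.37 at 12 h and 0.982, 0.867 and 1.32 at 24 h, from between 10 and 54 counts a library. Replicate 2 at 0 h lay inside the range of the 12 h libraries and of those at 24 h, so the groups overlapped. Its 12 h log2 fold change of 1.00 ± 0.340 had an edgeR adjusted p of 0.0393, and it missed the threshold on dropping 0 h replicates 1 (0.75) or 3 (0.92), or 12 h replicates 2 (0.76) or 3 (0.98). At 24 h Fancf stood at 0.70 (edgeR adjusted p = 0.193). Fancc rose by 0.45 at 12 h and was at 0.29 at 24 h. The smaller changes depended on single libraries. At 12 h, Fancc and Fancl each missed the threshold on dropping 0 h replicate 1 or either of 12 h replicates 1 and 2, and Fancl also on dropping 0 h replicate 2. At 24 h, Fancl did so on dropping 24 h replicate 3, and Fancm on dropping any of 0 h replicates 1 and 2 and 24 h replicates 2 and 3. Fance, which contacts FANCD2, and Fancg did not pass, with -0.10 and 0.069 at 12 h and -0.091 and 0.21 at 24 h. Exons of other genes overlap 18.6% of the exonic bases of Fancc, 15.0% of those of Fancf, 13.7% of those of Fancl and 10.5% of those of Fanca.

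The ID2 complex of FANCD2 and FANCI is what the core complex modifies, and the helicase BRIP1 and the deubiquitinase USP1 act with it. All 4 genes rose at both times, with medians of 0.46 and 0.58. Brip1 (ENSMUSG00000034329.16, chr11:86058138-86201193) had 8.13, 10.7 and 11.6 CPM at 0 h, 14.3, 15.2 and 16.3 at 12 h and 15.4, 15.5 and 16.9 at 24 h. The later libraries lay above all those at 0 h, of which replicate 1 was the lowest. The log2 fold changes were 0.58 ± 0.104 (SE, edgeR adjusted p = 0.000607) and 0.65 ± 0.103 (edgeR adjusted p = 0.000297). Fancd2 (ENSMUSG00000034023.16, chr6:113531682-113597017) was at 7.31, 9.02 and 9.38 CPM at 0 h, 11.9, 11.9 and 12.8 at 12 h and 13.7, 13.0 and 14.6 at 24 h. Here the 3 times formed separate ranges, each later one above the earlier. Its log2 fold change was 0.50 ± 0.0948 at 12 h and 0.68 ± 0.0932 at 24 h (SE), with edgeR adjusted p of 0.000972 and 6.91e-05, but the difference between 12 and 24 h, 0.18 ± 0.0900, did not pass (edgeR adjusted p = 0.282). Fanci rose by 0.42 and 0.51, with 16.0% of its exonic bases in other genes and a 12 h rise that did not pass on dropping 0 h replicates 1 or 3, or 12 h replicate 1, and Usp1 by 0.30 and 0.35.

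The helicase BLM and its cofactors RMI1 and RMI2 dissolve joined DNA molecules, and the nuclease EXO1 resects DNA ends and also cuts in mismatch repair. All 4 genes rose at both times, with medians of 0.52 and 0.54. Blm (ENSMUSG00000030528.12, chr7:80454733-80535119) had the lowest adjusted p of the 45 genes at both times. It went from 24.1, 26.0 and 25.6 CPM at 0 h to 38.9, 40.4 and 43.8 at 12 h, and was at 37.3, 39.8 and 42.2 at 24 h. The gap between the 0 h libraries and the others was wider than the range within any time. The log2 fold changes were 0.70 ± 0.0608 (SE, edgeR adjusted p = 9.66e-07) and 0.66 ± 0.0607 (edgeR adjusted p = 1.45e-06). Rmi2 (ENSMUSG00000037991.9, chr16:10835059-10892966) had 1.49, 2.13 and 1.63 CPM at 0 h, 2.90, 3.12 and 2.45 at 12 h and 3.24, 2.57 and 3.06 at 24 h. Every later library was above those at 0 h, although the 12 h difference just missed the threshold when 12 h replicate 2 was dropped (0.60). Its log2 fold changes were 0.68 ± 0.182 (SE, edgeR adjusted p = 0.0116) and 0.74 ± 0.180 (edgeR adjusted p = 0.00869). Exo1 rose by 0.36 and 0.43. Rmi1 rose by 0.25 and 0.27, close to the threshold at both times (edgeR adjusted p = 0.0452 and 0.0445), and at each time missed it in 6 of 9 leave-one-out fits, both times on dropping 0 h replicates 1 or 2, 12 h replicate 1 or 24 h replicate 1.

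At stalled replication forks, MMS22L and TONSL act as a complex in recombination, RAD18 attaches ubiquitin to the sliding clamp, and polymerase theta, the product of Polq, joins broken ends by short matching stretches. All 4 genes rose at both times, with medians of 0.48 and 0.52. Polq (ENSMUSG00000034206.15, chr16:37011786-37095417) was at 7.77, 11.1 and 8.04 CPM at 0 h, 12.6, 13.6 and 15.4 at 12 h and 13.3, 13.7 and 14.4 at 24 h. Replicate 2 at 0 h stood above its fellows but below every later library. The log2 fold changes were 0.62 ± 0.117 (SE, edgeR adjusted p = 0.000972) and 0.61 ± 0.116 (edgeR adjusted p = 0.00136). Mms22l rose by 0.49 and 0.56, its partner Tonsl by 0.35 and 0.44, and Rad18 by 0.48 and 0.49.

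Of the nuclease genes that cut joined molecules, Eme1 rose and the other 2 did not pass. Eme1 (ENSMUSG00000039055.4, chr11:94644996-94653964), the partner of the MUS81 nuclease, had 5.71, 6.84 and 7.11 CPM at 0 h, 7.93, 10.5 and 8.87 at 12 h and 9.20, 10.1 and 11.1 at 24 h. No later library fell to the level of those at 0 h. Its log2 fold changes were 0.46 ± 0.119 (SE, edgeR adjusted p = 0.00931) and 0.63 ± 0.117 (edgeR adjusted p = 0.00122), with 10.7% of its exonic bases in other genes. Without replicate 2 at 12 h the 12 h rise, 0.35, no longer passed. Mus81 stood at -0.0086 and -0.0048, and Slx4, the scaffold that holds several nucleases, at -0.031 and 0.043. Whether Eme1 differed from Mus81 in its response was not tested.

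Of the 4 MutS and MutL genes, 2 had risen and 1 had fallen at 12 h and 1 had risen at 24 h, with medians of 0.17 and 0.18. Msh6 and Msh3 encode MutS proteins that recognise small mispairs and larger loops, Pms2 a MutL protein, and Msh5 a MutS protein of meiotic crossing over. Msh6 (ENSMUSG00000005370.4, chr17:87975062-87990892) was at 80.9, 84.4 and 79.1 CPM at 0 h, 92.9, 94.1 and 91.9 at 12 h and 97.1, 100.2 and 99.3 at 24 h. Its ranges were separate at the 3 times, each later one above the earlier. The changes were small, 0.19 ± 0.0385 (SE, edgeR adjusted p = 0.00164) and 0.28 ± 0.0383 (edgeR adjusted p = 6.91e-05), and the difference between 12 and 24 h, 0.089 ± 0.0381, did not pass (edgeR adjusted p = 0.196). Msh3 rose by 0.23 at 12 h and was at 0.11 at 24 h, and its rise did not pass on dropping 0 h replicate 3 (0.22), 12 h replicate 1 (0.20) or 12 h replicate 2 (0.22). Pms2 was at 0.16 and 0.12 and passed at neither time.

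Of the checkpoint genes, Chek1, Chek2 and Topbp1 rose at both times and the kinases Atm and Atr at neither. Chek1 (ENSMUSG00000032113.16, chr9:36708482-36727065), the kinase that ATR activates, had 11.1, 12.8 and 15.0 CPM at 0 h, 18.5, 19.8 and 19.2 at 12 h and 18.8, 17.9 and 17.9 at 24 h. The later libraries lay above all those at 0 h. Its log2 fold changes were 0.56 ± 0.0864 (SE, edgeR adjusted p = 0.000180) and 0.48 ± 0.0864 (edgeR adjusted p = 0.000860). Topbp1 (ENSMUSG00000032555.10, chr9:103305215-103350428), an activator of ATR, was at 75.5, 90.7 and 94.8 CPM at 0 h, 114, 119.7 and 120.3 at 12 h and 126, 123 and 131 at 24 h. The 3 times again formed separate ranges, but the difference between 12 and 24 h, 0.10 ± 0.0604 (SE), did not pass (edgeR adjusted p = 0.374). Topbp1 changed by 0.44 ± 0.0614 at 12 h and 0.54 ± 0.0612 at 24 h (SE), with edgeR adjusted p of 6.67e-05 and 1.09e-05. Chek2, the kinase that ATM activates, rose by 0.33 and 0.40. Atm was at -0.014 and 0.017 and Atr at 0.076 and 0.083.

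Msh5 and Rdm1 were singled out for their time courses, so their values are a description and support no test. Both were lowest at 12 h and highest at 24 h by their means. Msh5 (ENSMUSG00000007035.15, chr17:35028605-35046745) had 1.14, 1.47 and 1.63 CPM at 0 h, 0.894, 0.611 and 0.783 at 12 h and 1.54, 1.55 and 1.91 at 24 h. The 12 h libraries lay below all others, and the 24 h libraries overlapped those at 0 h. The log2 fold change was -0.89 ± 0.246 at 12 h and 0.24 ± 0.215 at 24 h against 0 h, and 1.13 ± 0.239 at 24 h against 12 h (SE). These levels came from between 19 and 75 counts a library. Rdm1 (ENSMUSG00000010362.9, chr11:101627195-101636100), which encodes a protein with a RAD52 motif, had 3.09, 2.68 and 2.15 CPM at 0 h, 1.79, 2.70 and 1.96 at 12 h and 4.55, 3.65 and 3.85 at 24 h. Its 12 h libraries overlapped those at 0 h, and its 24 h libraries stood above both. The log2 fold change was -0.29 ± 0.192 at 12 h and 0.61 ± 0.174 at 24 h against 0 h, and 0.90 ± 0.181 at 24 h against 12 h (SE), from between 60 and 151 counts a library.

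Between 12 and 24 h these were the only genes of the 45 past the edgeR threshold, both higher at 24 h, beside 1.97% of all tested genes higher and 3.06% lower. At an unadjusted p under 0.05 edgeR gave 4 higher and 0 lower, and DESeq2 gave the same numbers. The share of all tested genes at that unadjusted p was not counted, so the 4 are no result about these genes. Msh5 and Rdm1 also passed 1.5-fold with the adjusted p, beside 0.202% called higher by that rule. Among all 11373 tested genes, 27 had a larger 24 h against 12 h log2 fold change than Msh5 and 64 a larger one than Rdm1. Both were chosen for these time courses, so the calls and ranks describe them and are no support. The other 43 genes lay between -0.30 for Fancf and 0.26 for Xrcc3, with a median of 0.054, and the lowest edgeR adjusted p among them was 0.196. In 5 genes, Msh5, Rdm1, Fancd2, Msh6 and Topbp1, every 24 h library was above every 12 h library, and 0 showed the opposite, against 11.3% and 13.6% of tested genes. The 5 are close to the share of all tested genes, so the separate ranges are no result about these genes. Msh5 was no longer past the threshold without replicate 3 at 24 h, where its difference was 1.01, nor Rdm1 without replicate 1 at 12 h, where it was 0.78. Against 0 h, the 12 h fall of Msh5 was lost without replicate 3 at 0 h (-0.77) or replicate 2 at 12 h (-0.76), and the 24 h rise of Rdm1 without replicate 3 at 0 h (0.49) or replicate 1 at 24 h (0.52).

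**Figure D4:**
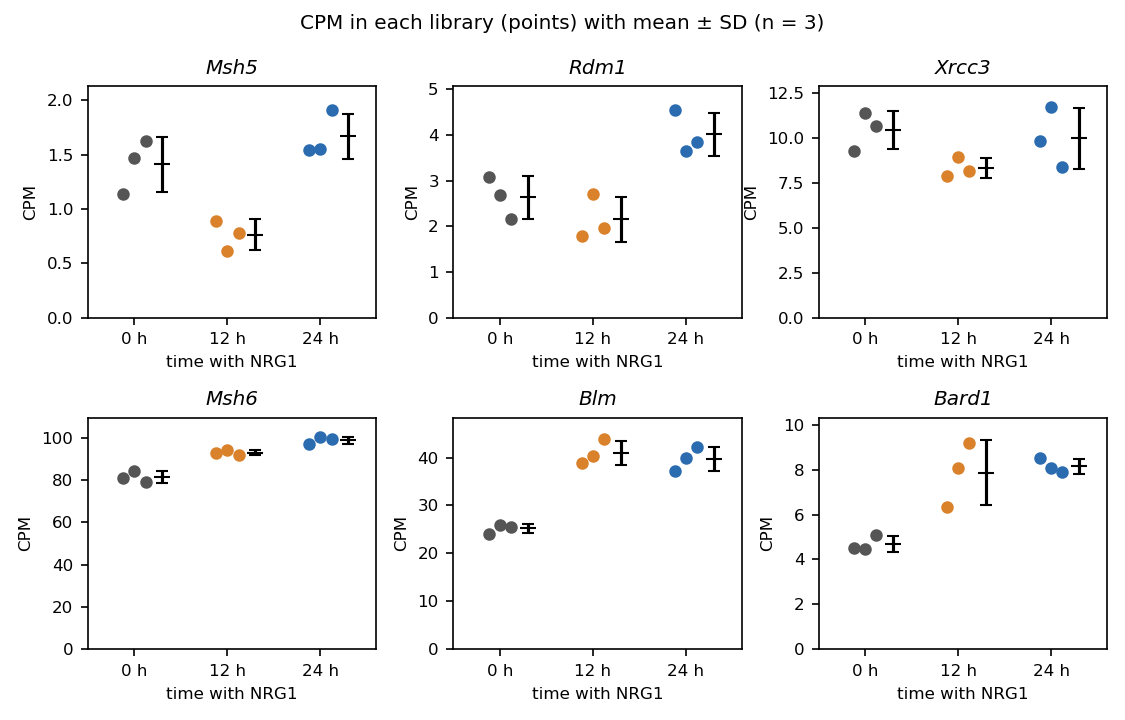
CPM (vertical axis, from 0) in each library (points) with mean ± SD of 3 libraries (bars) at 0, 12 and 24 h for Msh5, Rdm1, Xrcc3, Msh6, Blm and Bard1. Msh5 dips at 12 h to between 0.611 and 0.894 CPM, Rdm1 is highest at 24 h, and Blm and Bard1 are higher at 12 h and stay so at 24 h.

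The rest of the repair machinery was set beside these genes. A list of 57 other genes of recombination, the Fanconi pathway, mismatch repair and the checkpoint held 16 that had risen and 4 that had fallen at 12 h and 18 and 3 at 24 h, with medians of 0.079 and 0.082. Clspn, the mediator of CHEK1 activation, rose by 0.71 and 0.75 and Fignl1, which acts in recombination, by 0.71 and 0.68. Rev3l, the catalytic subunit of polymerase zeta, fell by 0.47 and 0.31 and Rad52 fell by 0.32 and 0.24. Of 12 genes of non-homologous end joining, 1 passed at 12 h, Paxx, with a log2 fold change of -0.60, and a different one had risen at 24 h. Of 21 genes of nucleotide excision repair, 4 passed at 12 h, 1 higher and 3 lower, and 4 at 24 h, each lower. The damage sensor Xpc fell by 0.24 and 0.30, and Uvssa fell by 0.34 and 0.32. Of 17 tested genes of base excision repair, 2 had risen at 12 h, Tdg by 0.41 and Ung by 0.36, and at 24 h 1 had risen and 1 had fallen. Over all tested genes 13.6% were higher and 11.9% lower at 12 h, and 9.67% and 7.76% at 24 h, so that with so few genes called, the end joining and excision repair counts are no result about those lists. Meiotic recombination genes were mostly too low to test, and of the 5 tested Mnd1 rose, by 0.45 and 0.43.

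Cell cycle markers moved with the recombination genes. Of 16 S phase markers, 15 had risen at 12 h and 14 at 24 h, with medians of 0.54 and 0.51, among them Rrm2, by 0.74 and 0.71, and Cdc6, by 0.77 and 0.55. Of 12 markers of G2 and mitosis, 11 had risen at 12 h and 12 at 24 h, with medians of 0.48 and 0.56, among them Aurkb, by 0.66 and 0.70, and Bub1, by 0.58 and 0.62. The summed level of the S phase markers ran from 797 to 905 CPM over the 0 h libraries, from 1271 to 1369 over the 12 h libraries and from 1229 to 1302 over the 24 h libraries. For G2 and mitosis the ranges were 779 to 894, 1102 to 1213 and 1235 to 1300.0 CPM. The part of these markers in the changes of the repair genes was not tested.

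**Figure D5:**
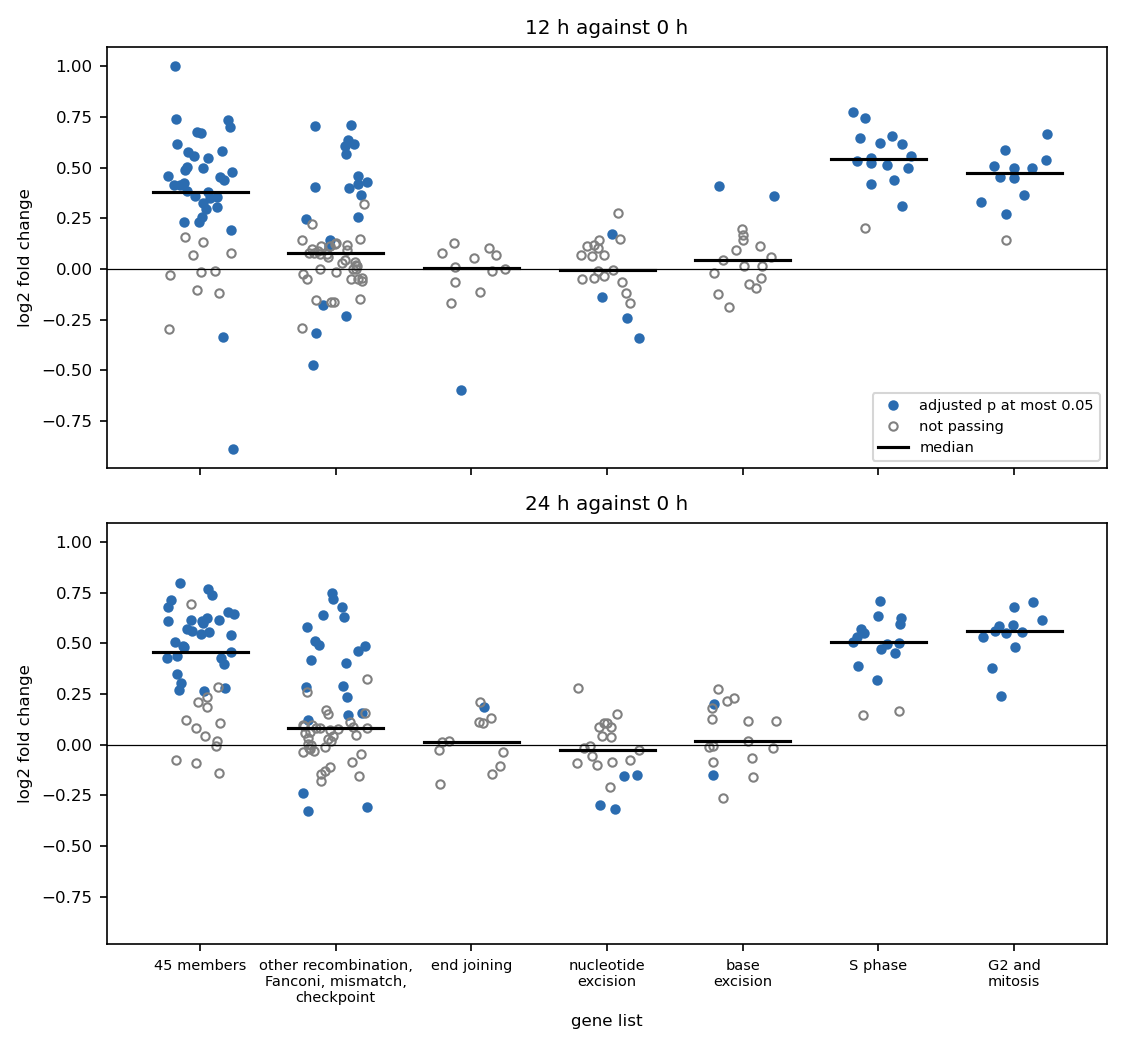
Log2 fold change against 0 h (vertical axis) of each gene in 7 lists at 12 h (upper panel) and 24 h (lower panel), filled where the edgeR adjusted p was at most 0.05, with the list's median as a bar. The 45 genes and the S phase and mitosis markers have medians between 0.38 and 0.56, and the 4 other repair lists have medians near 0. All lists were chosen with earlier results of these data known.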

How the data were processed

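Total RNA of MyC-CaP cells was sequenced as paired-end mRNA libraries, 3 at each of 0, 12 and 24 h of NRG1, and groups were taken from the times in the labels. Per the methods, reads were trimmed with Cutadapt, aligned with STAR to GRCm38.p6 and counted per gene with featureCounts against a GENCODE annotation. What the authors deposited is a table of raw, whole-number read counts for each gene, not normalized. Whether counting used the strand of the reads is not given in the sources used here.

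Counts were filtered with filterByExpr, which left 11373 of 15552 genes, scaled by TMM and fitted over all 9 libraries in edgeR 4.0.16 (R 4.3.3) with glmQLFit. Each pair of times was compared by the two-sided quasi-likelihood test, with Benjamini-Hochberg adjustment over all tested genes. A gene had changed at an adjusted p of at most 0.05, and the rule with 1.5-fold was read from the same fit. Total counts per library ran from 28467089 to 39239760, and the floor of 3 counts covers counting error only, whereas SD and SE also hold the variation between libraries. Replicates are biological replicates per the labels. The procedure was tested on simulated data. Alternatives were DESeq2 1.42.0, limma voom 3.58.1, glmTreat, other scalings and filters, pairs of times alone, a replicate block and fits without each library.

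The 45 genes and all lists were chosen with earlier results of these data known, so no list was tested, and the counts of a list are no independent evidence of its direction. Values in every library are given for Msh5, Rdm1, the gene of each class with the largest change at 12 and at 24 h among those that passed, and any gene that fell or differed between 12 and 24 h. From each other list at most 4 genes were named, the largest changes at 12 h in each direction. Exon lengths and overlaps were read from GENCODE M21 on GRCm38, an earlier release than the methods name for the mouse reads. They were matched by identifier for 44 of the 45 genes, and genes with over 10% of exonic bases in another gene are named as such.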

Additional observations from a re-analysis of the deposited data

Results flagged for a closer look

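In 2 of the 45 genes the effect of time differed between 12 and 24 h by the edgeR test of that difference itself. Msh5 was higher at 24 h than at 12 h by 1.13 on the log2 scale, with all 3 libraries at 24 h above all 3 at 12 h. Rdm1 was higher by 0.90, again without overlap between the 2 times. Both genes had been singled out for their time courses, so these tests are not independent support, and each rests on low counts.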

How the results depend on the processing

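Over 18 alternatives, the direction of all 68 passing values of single genes was kept, and 47 of them passed under all alternatives but the test against 1.5-fold (glmTreat). Of 67 values that did not pass, 0 passed under any alternative. Under glmTreat every count was 0: genes higher, lower and changed by 1.5-fold at 12 h, higher and changed at 24 h, and higher and changed between 12 and 24 h, since that test asks for a larger change. Fits that left out 1 library gave between 24 and 33 genes higher at 12 h, the fewest without replicate 2 at 12 h, between 0 and 2 lower, with 0 without replicate 3 at 0 h, and between 4 and 10 changed by 1.5-fold. At 24 h they gave between 28 and 31 higher and between 7 and 16 changed by 1.5-fold. Between 12 and 24 h they gave between 1 and 2 higher, and between 1 and 2 at 1.5-fold. DESeq2 gave 31 higher and 2 lower at 12 h and 30 higher at 24 h. The rise of Rmi1 was lost at both times under DESeq2 and without a filter on low counts.

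Libraries of different times share replicate numbers in the labels, but nothing says that a number marks a shared culture, and their deviations from the mean of each time correlated with r between -0.0744 and 0.131. With the replicate number as a block, 32 genes were higher and 2 lower at 12 h, 30 higher at 24 h and 2 higher at 24 h than at 12 h, and 9 and 13 reached 1.5-fold at 12 and 24 h. The call lost under the block was that of Rmi1, at both times.

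Counts limit what can be said of Fancf, with 10 to 54 counts a library, and of Msh5, with 19 to 75. Between replicates of 1 time, squared differences of counts were between 3.81 and 10.4 times what counting noise gives (chi-square per degree of freedom), so each library was kept as its own sample.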
